A study of Rattus norvegicus with 14 samples.

Results

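The retina of the rat was compared between the later hours of darkness and an earlier span of the day that ends just after lights off. The members are libraries: deep night is retina at zeitgeber time (ZT) 19 and ZT23, and day and dusk is retina at ZT7, ZT13 and ZT15, which makes 5 of the 14 libraries of the series. All were Sprague-Dawley rats aged 6 to 8 weeks, with no other treatment or genotype in the labels, housed under a cycle of 14 h light to 10 h dark. Lights went on at ZT0 and off at ZT14, so ZT7 is mid-day, ZT13 lies 1 h before lights off, ZT15 lies 1 h after it, ZT19 is mid-night and ZT23 lies 1 h before lights on. Each library was made from the retinas of 10 animals pooled, and each time has 1 library, so the times of a group stand in for replicates. Spread between animals and spread between times therefore cannot be told apart. Retina at ZT1, after lights had come on, belongs to neither group and is described apart, as are the lens crystallin genes, which may come from lens tissue.

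The retina holds its own circadian clock. Rods and cones see light with opsins and a cyclic GMP cascade, and in darkness an open current of ions runs through them that costs much energy. Melatonin is made by photoreceptors at night and dopamine is released by amacrine cells by day; dopamine acts on the D4 receptor of photoreceptors to lower their cyclic AMP, and melatonin holds dopamine release back. Cyclic AMP in turn acts through CREB, a transcription factor that binds the CRE motif in promoters.

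Abundance is given as FPKM, the number of sequenced fragments per kilobase of RNA, scaled to the total fragments of its library and summed over the transcripts of a gene. The sum over all genes lay between 152281 and 153165 FPKM in the deep night libraries, against 152868 to 179278 FPKM in the day and dusk libraries, with ZT7 the highest. Between 9380 and 9593 genes reached 1 FPKM. The number of reads behind a value is unknown, and certain housekeeping genes had values close to 0, Gapdh at 0.297 to 0.567 FPKM and Hspa8 at 0.0285 to 0.0721 FPKM, so a low value is given only as listed. As a check of the tissue, Gnat1, the rod transducin alpha gene, stood at 2869 and 3212 FPKM in deep night, against 3169, 2294 and 2426 FPKM in day and dusk.

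In all, 155 of the 9635 genes tested rose in deep night, 1.61% of them, and 225 fell, 2.34% (limma, adjusted p under 0.05), and in each of these 380 genes, 3.94% of those tested, the 2 groups of libraries did not overlap. At an unadjusted p under 0.05 there were 376 higher and 1897 lower genes. Among called genes large rises outnumbered large falls: 39 rose and 17 fell by at least 1 on the log2 scale. The 39 include lens crystallins and other lens genes, which are described apart. Without 6 lens crystallins 149 genes were called higher. The median of all genes lay at -0.12 on the log2 scale, and both deep night libraries stood below all 3 others in 37.3% of genes and above them in 6.86%. Median ratio scaling, which moves the median of all genes to -0.0049, called 371 genes higher and 186 lower, and quantile normalization 290 and 201. The higher genes were thus 40.8% of those called on the deposited scale, 66.6% after median ratio scaling and 59.1% after quantile normalization. Without ZT19 51 genes were higher and 41 lower, and without ZT23 83 and 84. With ZT1 counted as a further day library only 1 gene in each direction was left.

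To show the DNA in front of genes whose RNA rose, RefSeq promoters of the GRCr8 assembly (250 bases before to 50 bases after the transcription start) are printed for 4 genes of cyclic AMP, dopamine, melatonin and immediate early signalling. Capitals mark the CRE core, TGACG or CGTCA on the other strand, which is part of the full CRE, and in Aanat also GGATTA, the reverse of the CRX site TAATCC to which the photoreceptor factor CRX can bind. They lie at chr10:102326073-102326372 for Aanat, chr1:205825687-205825986 for Drd4, chr1:144575219-144575518 for Pde8a and chr7:134259888-134260187 for Nr4a1, each on the plus strand.
Aanat: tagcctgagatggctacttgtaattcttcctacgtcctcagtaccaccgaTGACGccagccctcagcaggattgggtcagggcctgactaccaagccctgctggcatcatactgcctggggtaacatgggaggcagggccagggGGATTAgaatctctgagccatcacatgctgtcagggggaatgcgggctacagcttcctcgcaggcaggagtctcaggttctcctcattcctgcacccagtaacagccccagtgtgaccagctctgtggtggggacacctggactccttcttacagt
Drd4: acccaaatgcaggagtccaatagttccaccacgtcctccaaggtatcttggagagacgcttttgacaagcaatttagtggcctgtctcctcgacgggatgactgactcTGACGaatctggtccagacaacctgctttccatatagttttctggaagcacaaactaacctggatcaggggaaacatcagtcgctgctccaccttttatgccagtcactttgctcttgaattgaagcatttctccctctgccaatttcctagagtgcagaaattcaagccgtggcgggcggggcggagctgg
Pde8a: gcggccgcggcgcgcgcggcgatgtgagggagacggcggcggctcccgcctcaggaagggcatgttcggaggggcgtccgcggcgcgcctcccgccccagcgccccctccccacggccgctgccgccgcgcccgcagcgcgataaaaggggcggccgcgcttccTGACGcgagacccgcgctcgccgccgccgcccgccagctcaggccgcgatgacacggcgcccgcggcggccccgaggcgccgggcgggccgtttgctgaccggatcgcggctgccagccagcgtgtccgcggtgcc
Nr4a1: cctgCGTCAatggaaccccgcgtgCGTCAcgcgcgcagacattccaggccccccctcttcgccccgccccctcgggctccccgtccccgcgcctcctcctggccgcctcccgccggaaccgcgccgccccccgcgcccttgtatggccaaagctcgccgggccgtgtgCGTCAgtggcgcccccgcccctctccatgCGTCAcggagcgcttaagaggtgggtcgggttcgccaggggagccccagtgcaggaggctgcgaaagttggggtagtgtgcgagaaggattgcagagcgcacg

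The CRE core of Aanat begins 200 bases before the start and its CRX site 106 bases before it. The CRE core of Drd4 begins 142 bases before the start and that of Pde8a 86 bases before it, and Nr4a1 holds 4. The printed promoters all hold the core and are not a sample of the higher genes. That of Pde8b, also called higher, held an E-box and no CRE core. Such matches are common: TGACG on either strand was found in 35.2% of 125 promoters of higher genes, crystallins left out, in 30.65% of 186 promoters of lower genes, in 32.92% of those of all tested genes and in 21.96% of all 27457 promoters. The full CRE, TGACGTCA, was in 5.6% of the promoters of higher genes, 5.91% of those of lower genes and 3.49% of those of tested genes. The CRX site was in 8.0%, 5.91% and 5.39% of the same 3 sets. The AP-1 site TGACTCA, bound by FOS and JUN proteins, was in 6.4%, 1.08% and 3.03%. The E-box CACGTG, bound by the clock activators, was in 8.8%, 15.05% and 9.62%. The element TAGGTCA of ROR and REV-ERB receptors was in 3.2%, 1.61% and 1.63%, and the D-box TTATGTAA was in 0 promoters of either set of called genes and in 0.42% of those of tested genes. These shares describe the windows and were not tested.

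Outside the lens, genes of melatonin, dopamine and adrenergic signalling had the most rises of any list on the deposited scale. Of 12 tested members 4 rose, Aanat, Drd4, Adra1b and Asmt, and 0 fell, beside 1.61% and 2.34% of all genes tested. These shares apply to every list count below, and a count of 1 or 2 is not read as a result about a list. Aanat and Adra1b reached 1 FPKM only in the 2 deep night libraries, so both entered the count through the group where they were high. This list was chosen with earlier results known, so its count is not support for a list effect. The list also had 4 higher members after quantile normalization and after median ratio scaling, where glycolysis had more, 5 and 6. The median of the list lay 0.09 above that of all genes. Aanat, whose enzyme AANAT makes the precursor that melatonin is finished from (chr10:106709371-106713683, rn4 as for all genes below), stood at 4.17 and 2.47 FPKM at ZT19 and ZT23, against 0.147, 0.0831 and 0.249 FPKM at ZT7, ZT13 and ZT15. All 3 day and dusk libraries were listed below both deep night ones. The means were 3.32 ± 1.2 FPKM in deep night (SD, n = 2) and 0.160 ± 0.0836 FPKM in day and dusk (SD, n = 3), a log2 difference of 1.87 (SE 0.17, adjusted p = 0.00037) that the pseudocount of 1 FPKM holds down. Asmt, the last enzyme of melatonin synthesis, rose far less, with 8.61 and 8.34 FPKM in deep night, against 4.61, 6.45 and 5.16 FPKM in day and dusk (log2 difference 0.58, adjusted p = 0.036). Its call was lost without ZT19, ZT23 or ZT15 (adjusted p 0.206, 0.142 and 0.062). Of genes listed as markers of the pineal gland, 2 of 7 tested were called, again Aanat and Asmt. The median of this list lay 0.25 above that of all genes, and its lowest log2 difference was -0.83, that of Gngt1. Gngt1 is also a rod gene, at 1004 and 715 FPKM in deep night retina and 781 and 430 FPKM in deep night pineal gland. It therefore does not mark pineal tissue in the retina. After median ratio scaling 2 members were higher and 1, Gngt1, was lower. Tph1, the serotonin enzyme abundant in the pineal gland, stood at 0.522 and 0.359 FPKM in deep night retina, against 0.473, 0.452 and 0.437 FPKM in day and dusk retina.

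Drd4, the dopamine D4 receptor gene (chr1:201485597-201488784), stood at 65.2 and 52.0 FPKM in deep night, against 18.5, 18.3 and 19.3 FPKM in day and dusk. The 3 day and dusk libraries were nearly level, and ZT15, already dark, was among them. Drd4 averaged 58.6 ± 9.36 FPKM in deep night (SD, n = 2) and 18.7 ± 0.535 FPKM in day and dusk (SD, n = 3), which is 3.13-fold higher (log2 difference 1.59, SE 0.12, adjusted p = 0.00019). Adra1b, an alpha-1 adrenergic receptor gene, stood at 3.80 and 3.43 FPKM in deep night, against 0.788, 0.924 and 0.984 FPKM in day and dusk (log2 difference 1.28, adjusted p = 0.00043). The D2 receptor gene Drd2 stood at 12.5 and 12.98 FPKM in deep night, against 14.5, 11.5 and 13.03 FPKM in day and dusk (adjusted p = 0.917), so the groups overlapped. Th, the gene of the enzyme that limits dopamine synthesis, stood at 2.79 and 2.41 FPKM in deep night, against 3.17, 3.57 and 2.77 FPKM in day and dusk (adjusted p = 0.331). Aanat and Adra1b could not be tested without ZT19 or ZT23, because a single library would then reach 1 FPKM.

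Of 25 cyclic AMP genes, 2 rose and 1 fell, beside 1.61% and 2.34% of all genes tested. The list median lay 0.14 above that of all genes. Pde8a, a phosphodiesterase that breaks cyclic AMP down (chr1:137415852-137544337), stood at 21.1 and 15.8 FPKM in deep night, against 4.97, 4.70 and 5.48 FPKM in day and dusk. Its means of 18.5 ± 3.76 FPKM in deep night (SD, n = 2) and 5.05 ± 0.395 FPKM in day and dusk (SD, n = 3) differed 3.66-fold (log2 difference 1.68, SE 0.13, adjusted p = 0.00019). Its relative Pde8b rose less, with 15.0 and 16.0 FPKM in deep night, against 11.7, 9.84 and 11.6 FPKM in day and dusk (log2 difference 0.46, adjusted p = 0.049). Adcy1, a calcium-driven adenylyl cyclase that makes cyclic AMP, fell to 22.3 and 18.9 FPKM in deep night, against 29.3, 31.1 and 31.9 FPKM in day and dusk (log2 difference -0.56, adjusted p = 0.022). The RNA of these 2 phosphodiesterases was thus higher and that of 1 cyclase lower on the deposited scale. Median ratio scaling called 3 members of the list higher and 0 lower, so Adcy1 lost its call. Quantile normalization called 3 higher and 1 lower. The calls of Pde8b and Adcy1 were lost without ZT19 (adjusted p 0.213 and 0.0742), without ZT23 (0.272 and 0.234) and without ZT15 (0.0651 and 0.0543), and that of Pde8b without ZT13 (0.109). Sik1, a kinase gene that cyclic AMP switches on, missed the threshold, with 2.77 and 2.34 FPKM in deep night, against 1.62, 1.69 and 1.47 FPKM in day and dusk (adjusted p = 0.065).

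**Figure D1:**
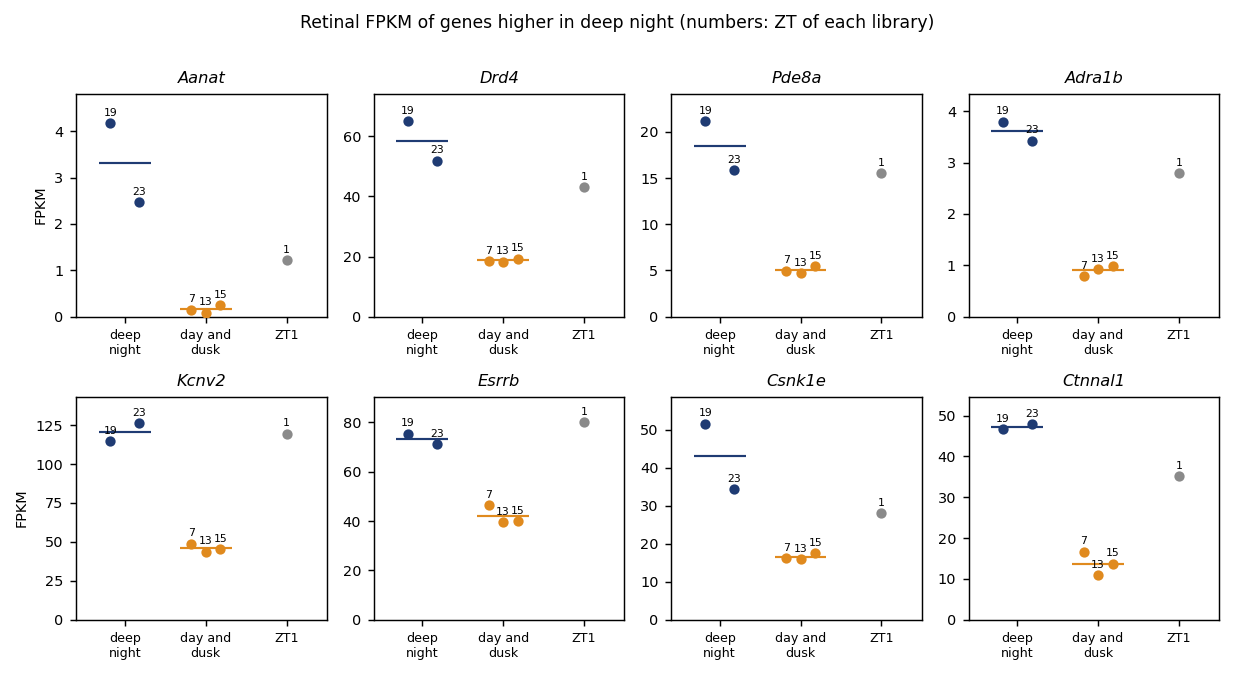
FPKM, from 0, of 8 genes higher in deep night, with a point for each retinal library labelled by its ZT, in the columns deep night, day and dusk, and ZT1, and bars at the group means (n = 2 and n = 3). Every deep night point lies above every day and dusk point, as for Drd4 with 65.2 and 52.0 FPKM against at most 19.3 FPKM, and Kcnv2 and Pde8a are near their deep night level at ZT1.

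Immediate early genes code for transcription factors and regulators that cells switch on within minutes of a stimulus. Of 12 tested, Nr4a1, Junb and Dusp1 rose and 0 fell, with a median 0.45 above that of all genes. The nuclear receptor gene Nr4a1 (chr7:140012807-140020589) stood at 31.2 and 19.7 FPKM in deep night, against 6.00, 6.17 and 12.4 FPKM in day and dusk (log2 difference 1.56, SE 0.26, adjusted p = 0.0088). ZT15 was the highest of the 3 day and dusk libraries. Junb, an AP-1 partner of FOS, had the same order of libraries, with 18.9 and 15.0 FPKM in deep night, against 4.995, 5.59 and 9.77 FPKM in day and dusk (log2 difference 1.25, adjusted p = 0.010). Dusp1, a phosphatase that switches MAP kinases off, stood at 21.3 and 21.3 FPKM in deep night, against 11.3, 8.22 and 15.8 FPKM in day and dusk (log2 difference 0.85, adjusted p = 0.042). Without ZT19 all 3 calls were lost (adjusted p 0.0667 for Nr4a1, 0.071 for Junb and 0.168 for Dusp1), and that of Dusp1 also without ZT23 (0.137) and without ZT7 (0.0788).

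The 2 immediate early genes with the widest range, Egr1 and Fos, missed the threshold and had ZT15 as their highest library. Egr1, a zinc finger factor, stood at 299 and 169.9 FPKM in deep night, against 4.19, 11.3 and 600.1 FPKM at ZT7, ZT13 and ZT15 (log2 difference 2.75, SE 1.45, adjusted p = 0.28). Fos stood at 47.0 and 25.1 FPKM in deep night, against 3.78, 4.14 and 51.0 FPKM at those times (log2 difference 1.70, adjusted p = 0.226). Both were low in the lit libraries ZT7 and ZT13 and high in all 3 dark ones, unlike Nr4a1 and Junb, in which ZT15 lay below deep night. At ZT1, in the light again, Egr1 was at 47.3 FPKM and Fos at 19.6 FPKM.

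**Figure D2:**
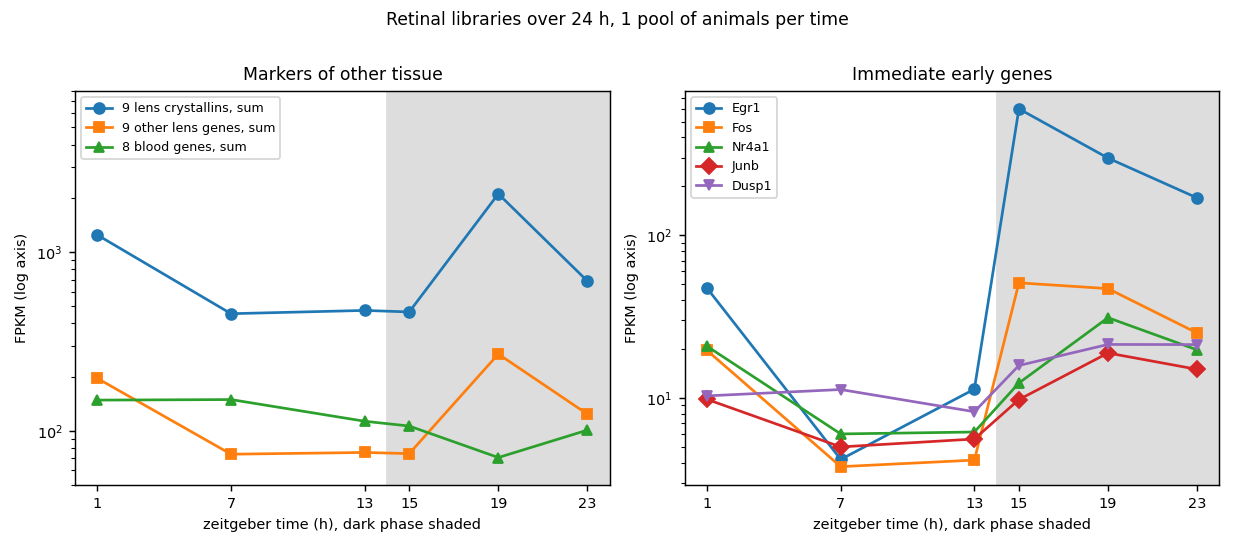
FPKM on a log axis over zeitgeber time in hours in the 6 retinal libraries, 1 pool each, with the dark hours shaded; the left panel shows the summed FPKM of 9 lens crystallins, 9 other lens genes and 8 blood genes, and the right panel 5 immediate early genes. Egr1 and Fos were high from ZT15, with 600.1 and 51.0 FPKM, whereas Nr4a1 and Junb were highest at ZT19; the crystallin sum was highest at ZT19 and next highest at ZT1.

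Few genes of the core clock were called. The comparison averages over the times of each group and leaves ZT1 out. A clock gene that peaks near dawn or dusk could thus change over the day without a difference here, and rhythm was not tested. Of 12 activators and repressors 1 rose, Csnk1e, and of 6 nuclear receptors and output factors 0 were called; the medians lay 0.06 and 0.05 above that of all genes. Csnk1e, the kinase that marks PER proteins for breakdown (chr7:117402718-117420764), stood at 51.6 and 34.5 FPKM in deep night, against 16.3, 15.9 and 17.4 FPKM in day and dusk. Its means of 43.1 ± 12.1 FPKM in deep night (SD, n = 2) and 16.5 ± 0.793 FPKM in day and dusk (SD, n = 3) gave a log2 difference of 1.3 (SE 0.15, adjusted p = 0.0014). Per1, a clock repressor, stood at 15.6 and 11.6 FPKM in deep night, against 16.5, 17.9 and 17.2 FPKM in day and dusk (log2 difference -0.33, adjusted p = 0.151), and Per2 had a log2 difference of 0.04. The output factor Dbp stood at 39.1 and 32.4 FPKM in deep night, against 51.9, 41.5 and 42.8 FPKM in day and dusk (log2 difference -0.33, adjusted p = 0.16). Arntl and Nr1d1, an activator and its repressor, lay at 0.07 and 0.01. Ccrn4l, the gene of nocturnin, first known as a night transcript of the frog retina, did rise, with 11.2 and 7.95 FPKM in deep night, against 2.40, 2.18 and 2.78 FPKM in day and dusk (log2 difference 1.60, SE 0.14, adjusted p = 0.00028).

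Of 24 ion channel genes 2 rose, Kcnv2 among them, and 0 fell, beside 1.61% and 2.34% of all genes tested. The list median lay 0.12 above that of all genes. Kcnv2 encodes Kv8.2, a modifier subunit of voltage-gated potassium channels in photoreceptors. Kcnv2 (chr1:230834883-230849285) stood at 115 and 126 FPKM in deep night, against 48.9, 43.7 and 45.5 FPKM in day and dusk. It averaged 120 ± 8.06 FPKM in deep night (SD, n = 2) and 46.1 ± 2.62 FPKM in day and dusk (SD, n = 3), 2.62-fold higher (log2 difference 1.37, SE 0.12, adjusted p = 0.00028). The spread within each group was small beside the step between them. Of 18 pumps and carriers 1 rose (median 0.09 above that of all genes), the sodium bicarbonate cotransporter gene Slc4a7, with 32.5 and 35.3 FPKM in deep night, against 20.0, 18.8 and 19.8 FPKM in day and dusk (log2 difference 0.76, adjusted p = 0.0035).

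Of 9 rod and 9 cone phototransduction genes, those of the light-sensing cascade itself, 0 were called on the deposited scale, with medians 0.02 below and 0.25 above that of all genes. After median ratio scaling 1 rod gene was higher and 1 lower, and 1 cone gene was higher, as was 1 cone gene after quantile normalization. The rod transducin subunit gene Gngt1 came nearest, with 1004 and 715 FPKM in deep night, against 1620, 1512 and 1406 FPKM in day and dusk (log2 difference -0.83, adjusted p = 0.054, and past the threshold in 6 of 16 alternatives, median ratio scaling among them), and the green cone opsin gene Opn1mw had a log2 difference of -0.40 (adjusted p = 0.12). Among 15 calcium sensor and shut-off genes 2 fell, with a median 0.01 above that of all genes. Gucy2e, the guanylate cyclase that restores cyclic GMP after light (chr10:56012236-56027290), fell to 33.8 and 34.7 FPKM in deep night, against 61.4, 62.8 and 59.2 FPKM in day and dusk. The means of 34.2 ± 0.613 FPKM in deep night (SD, n = 2) and 61.1 ± 1.84 FPKM in day and dusk (SD, n = 3) gave a log2 difference of -0.82 (SE 0.11, adjusted p = 0.0027). Pde6d, which carries lipid-tailed proteins to the outer segment, fell to 14.8 and 14.0 FPKM in deep night, against 30.5, 23.3 and 24.8 FPKM in day and dusk (log2 difference -0.81, adjusted p = 0.0065, and 0.055 without ZT23). After quantile normalization 5 of the 15 were lower, and after median ratio scaling 3.

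Of 24 genes of outer segment structure and the visual cycle, which turns spent retinal back into the light-sensitive form, 3 fell and 1 rose (median 0.03 below that of all genes). Among all genes tested 2.34% fell and 1.61% rose. The retinol dehydrogenase gene Rdh12 fell to 9.86 and 15.1 FPKM in deep night, against 29.9, 21.6 and 20.4 FPKM in day and dusk (log2 difference -0.90, SE 0.19, adjusted p = 0.027). Rdh11, another such enzyme, fell to 58.3 and 56.8 FPKM in deep night, against 119, 83.7 and 89.4 FPKM in day and dusk (log2 difference -0.73, adjusted p = 0.027). Both dehydrogenases were highest at ZT7 and lowest in deep night, and the groups did not overlap. Fscn2, an actin bundler of photoreceptors, fell to 17.8 and 20.6 FPKM in deep night, against 34.2, 30.2 and 24.4 FPKM in day and dusk (log2 difference -0.59, adjusted p = 0.047). Rpe65, the isomerase of the pigment epithelium that remakes the retinal, rose to 7.55 and 11.9 FPKM in deep night, against 5.13, 5.31 and 6.34 FPKM in day and dusk (log2 difference 0.68, adjusted p = 0.047, and 0.38 with adjusted p 0.311 without ZT23). Of the calls, those of Rdh12, Rdh11 and Fscn2 were lost without ZT19 (adjusted p 0.222, 0.154 and 0.31), those of Rdh11 and Fscn2 also without ZT23 (0.154 and 0.111), those of Fscn2 and Rpe65 without ZT7 (0.0535 and 0.0879) and without ZT13 (0.0661 and 0.0556).

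Among 17 transcription factor genes of photoreceptors 1 rose and 1 fell, with a median 0.07 above that of all genes. Esrrb, an orphan nuclear receptor of rods, rose to 75.5 and 71.3 FPKM in deep night, against 46.4, 39.6 and 39.9 FPKM in day and dusk (log2 difference 0.79, SE 0.12, adjusted p = 0.0051, and 0.0707 without ZT19). Pax4, a homeobox factor known mainly from the pancreas (chr4:55313500-55318995), fell to 22.2 and 9.81 FPKM in deep night, against 53.3, 44.8 and 41.5 FPKM in day and dusk. Its 2 deep night values were far apart and still lay below every day and dusk value. The means were 16.0 ± 8.77 FPKM in deep night (SD, n = 2) and 46.5 ± 6.11 FPKM in day and dusk (SD, n = 3), a log2 difference of -1.58 (SE 0.25, adjusted p = 0.0067) that was -1.03 without ZT23. Neurod1, a factor that photoreceptors need to survive, stood at 156 and 129 FPKM in deep night, against 97.9, 98.7 and 101 FPKM in day and dusk (adjusted p = 0.051). Crx and Nrl, which set photoreceptor identity, overlapped between the groups.

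Of 21 genes of synaptic release and the photoreceptor ribbon 2 fell and 1 rose, beside 2.34% and 1.61% of all genes tested. The list median lay 0.06 above that of all genes. Rims2, an active zone scaffold, fell to 21.8 and 19.2 FPKM in deep night, against 33.0, 28.3 and 30.1 FPKM in day and dusk (log2 difference -0.55, adjusted p = 0.026). Unc13a, which primes vesicles, rose to 12.9 and 11.5 FPKM in deep night, against 8.23, 8.94 and 8.57 FPKM in day and dusk (log2 difference 0.46, adjusted p = 0.037). The calls of Rims2 and Unc13a were lost without ZT19 (adjusted p 0.106 and 0.305), without ZT23 (0.233 and 0.112) and without ZT15 (0.0524 and 0.0675).

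**Figure D3:**
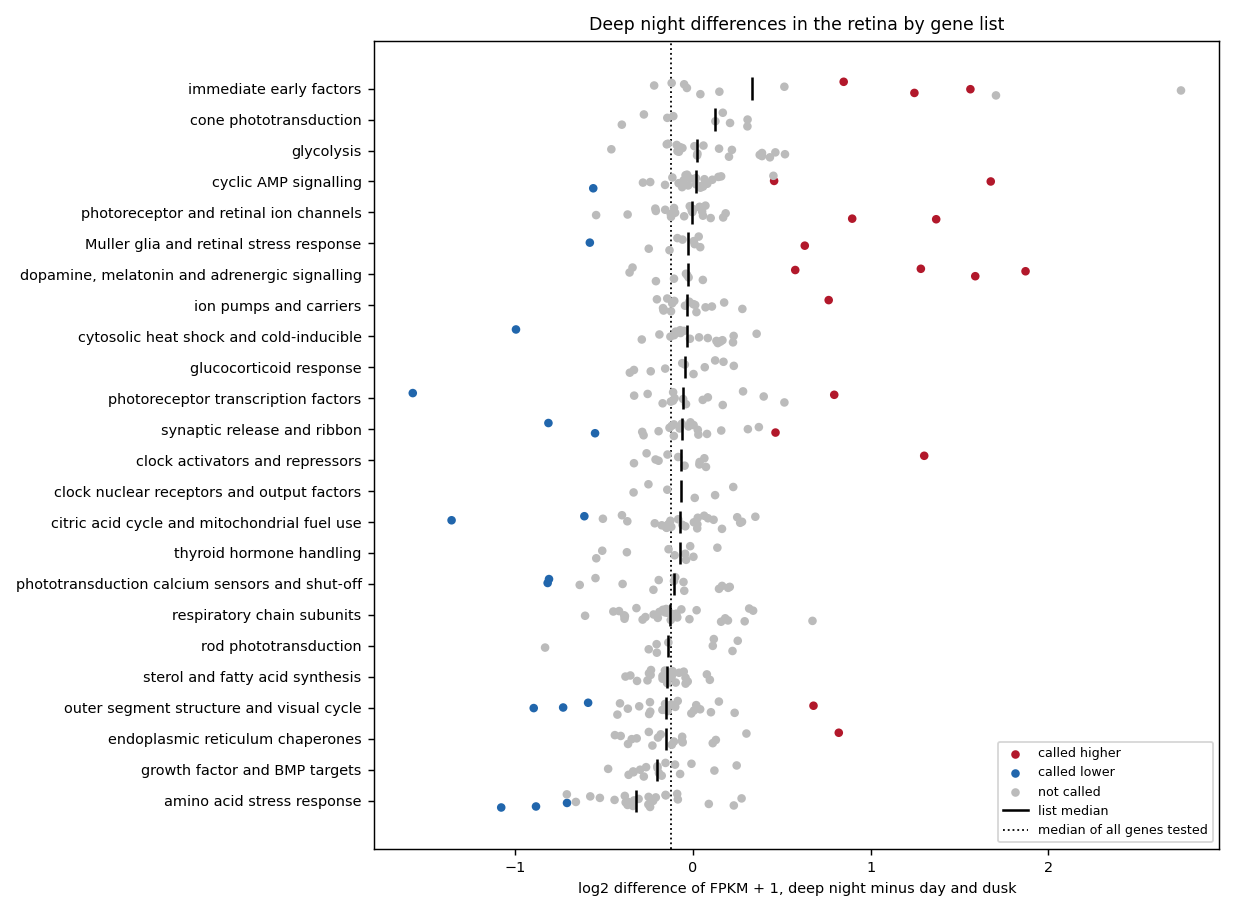
Log2 difference of FPKM + 1, deep night minus day and dusk, for each tested gene of 24 lists, with called genes coloured, the median of each list as a bar and the median of all genes (-0.12) as a dotted line. Immediate early genes have the highest list median (0.33) and genes of the amino acid stress response the lowest (-0.32), and the uncalled Egr1 and Fos lie far to the right.

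Of 28 genes of the citric acid cycle and mitochondrial fuel use 2 fell, beside 2.34% of all genes tested. The list median lay 0.05 above that of all genes. Cpt1a, which lets long-chain fatty acids into mitochondria (chr1:205852800-205912972), fell to 20.4 and 11.8 FPKM in deep night, against 43.0, 40.8 and 40.7 FPKM in day and dusk. The day and dusk libraries were almost level, and both deep night libraries were far below. The means of 16.1 ± 6.10 FPKM in deep night (SD, n = 2) and 41.5 ± 1.27 FPKM in day and dusk (SD, n = 3) gave a log2 difference of -1.36 (SE 0.18, adjusted p = 0.0029). Ppargc1a, a coactivator that drives mitochondrial genes, fell to 5.07 and 5.82 FPKM in deep night, against 8.07, 9.24 and 9.23 FPKM in day and dusk (log2 difference -0.61, adjusted p = 0.014, and 0.168 without ZT19). Of 33 respiratory chain subunits 0 were called (median 0.01 below that of all genes); Ndufa4 differed most, with 344 and 503 FPKM in deep night, against 327, 201 and 269 FPKM in day and dusk (adjusted p = 0.11). After median ratio scaling 4 of the 33 were higher, and after quantile normalization 2 were lower.

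Of 23 glycolysis genes 0 were called, with a list median 0.14 above that of all genes. In 7 of them both deep night libraries lay above the others, beside 6.86% of all genes tested. Aldoa, an aldolase gene, stood at 520.5 and 513 FPKM in deep night, against 412, 359.8 and 317 FPKM in day and dusk (log2 difference 0.52, adjusted p = 0.098). The hexokinase gene Hk2, the entry step, stood at 121 and 115 FPKM in deep night, against 81.0, 89.1 and 92.0 FPKM in day and dusk (log2 difference 0.43, adjusted p = 0.071). Pgk1, the first step that yields ATP, had a log2 difference of 0.46 (adjusted p = 0.069). Here the scale decides the call: 5 members were higher after quantile normalization and 6 after median ratio scaling. Of all 9635 genes tested, 290 and 371 were higher under these scalings. Of 26 genes of sterol and fatty acid synthesis 0 were called (median 0.02 below that of all genes), and Nsdhl, a sterol enzyme gene, differed most (log2 difference -0.38, adjusted p = 0.095).

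The amino acid stress response, in which ATF4 and related factors raise genes of amino acid synthesis and transfer RNA charging, had the lowest median of the 24 pathway lists. Of 28 members 3 fell and 0 rose, beside 2.34% and 1.61% of all genes tested, and the median lay 0.20 below that of all genes. In 18 members both deep night libraries lay below the others, beside 37.3% of all genes tested. Asns, asparagine synthetase, fell to 7.71 and 7.80 FPKM in deep night, against 29.3, 14.0 and 12.9 FPKM in day and dusk (log2 difference -1.08, SE 0.26, adjusted p = 0.048). ZT7 was highest by far. Atf5, a factor of the same response, fell to 5.48 and 4.27 FPKM in deep night, against 11, 10.97 and 7.75 FPKM in day and dusk (log2 difference -0.88, adjusted p = 0.011). Psph, the last enzyme of serine synthesis, fell to 4.81 and 4.995 FPKM in deep night, against 10.5, 8.67 and 7.12 FPKM in day and dusk (log2 difference -0.71, adjusted p = 0.021). Without ZT19 the calls of Asns and Psph were lost (adjusted p 0.175 and 0.125), and without ZT23 those of all 3 (0.141 for Asns, 0.0862 for Atf5 and 0.0798 for Psph). After quantile normalization 5 members were lower and after median ratio scaling 4, and under both Asns was no longer among them; its call was lost in 10 of 16 alternatives.

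Stress and hormone lists held few calls. Of 18 chaperone genes of the endoplasmic reticulum 1 rose (median 0.03 below that of all genes), Sel1l, an adaptor of the disposal of misfolded proteins, with 64.6 and 52.5 FPKM in deep night, against 33.6, 32.8 and 31.3 FPKM in day and dusk (log2 difference 0.82, adjusted p = 0.0050, and 0.0842 without ZT19). Of 20 heat shock and cold-inducible genes 1 fell (median 0.09 above that of all genes), the cold-inducible RNA-binding protein gene Rbm3, with 12.2 and 12.6 FPKM in deep night, against 30.9, 25.1 and 22.01 FPKM in day and dusk (log2 difference -1.0, SE 0.14, adjusted p = 0.0035). Within day and dusk Rbm3 was highest at ZT7 and lowest at ZT15. Of 10 genes by which Müller glia answer stress 1 rose and 1 fell (median 0.09 above that of all genes). Stat3, a factor downstream of cytokine receptors, rose to 17.9 and 18.4 FPKM in deep night, against 12.1, 11.5 and 10.6 FPKM in day and dusk (log2 difference 0.63, adjusted p = 0.0088). Lcn2, an iron-binding secreted protein, fell to 2.48 and 3.15 FPKM in deep night, against 5.06, 4.73 and 4.28 FPKM in day and dusk (log2 difference -0.58, adjusted p = 0.027). Without ZT19 both calls were lost (adjusted p 0.0819 for Stat3 and 0.249 for Lcn2), and that of Stat3 without ZT23 (0.0798).

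Of 10 thyroid hormone genes, 11 glucocorticoid targets and 17 growth factor and BMP targets 0 were called, with medians 0.05 and 0.08 above and 0.08 below that of all genes. The members that differed most were Dio2, which activates thyroid hormone (log2 difference -0.54, adjusted p = 0.10), the glucocorticoid target Fkbp5 (-0.36, adjusted p = 0.099) and Bmp4 (-0.48, adjusted p = 0.16).

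Other large rises lay outside these lists. Ctnnal1, the gene of alpha-catulin, a relative of alpha-catenin, stood at 46.7 and 47.8 FPKM in deep night, against 16.7, 10.9 and 13.7 FPKM in day and dusk (log2 difference 1.73, SE 0.15, adjusted p = 0.00028). Ptpn20, a tyrosine phosphatase gene, stood at 3.71 and 2.98 FPKM in deep night, against 0.188, 0.273 and 0.448 FPKM in day and dusk (log2 difference 1.74, adjusted p = 0.00028). Both were separated from day and dusk by a wide gap. Atp7b, a copper-transporting ATPase gene with a shorter night-time product in the rat pineal gland, stood at 12.2 and 10.3 FPKM in deep night, against 2.47, 2.78 and 3.35 FPKM in day and dusk (log2 difference 1.67, adjusted p = 0.00019). Irak2, a kinase gene of interleukin-1 signalling, stood at 3.79 and 5.63 FPKM in deep night, against 1.02, 0.920 and 1.15 FPKM in day and dusk (log2 difference 1.48, adjusted p = 0.00059). Further rises were those of Pla2g1b, a secreted phospholipase (1.69, adjusted p = 0.0027), Ypel4 (1.33, adjusted p = 0.00080) and Bcl2l10, of the Bcl-2 family of cell death regulators (1.32, adjusted p = 0.0064), as log2 differences. Ptpn20, at 0.605 FPKM at ZT1, was the gene still higher when ZT1 was counted with day and dusk, and like Aanat it could not be tested without ZT19 or ZT23.

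**Figure D4:**
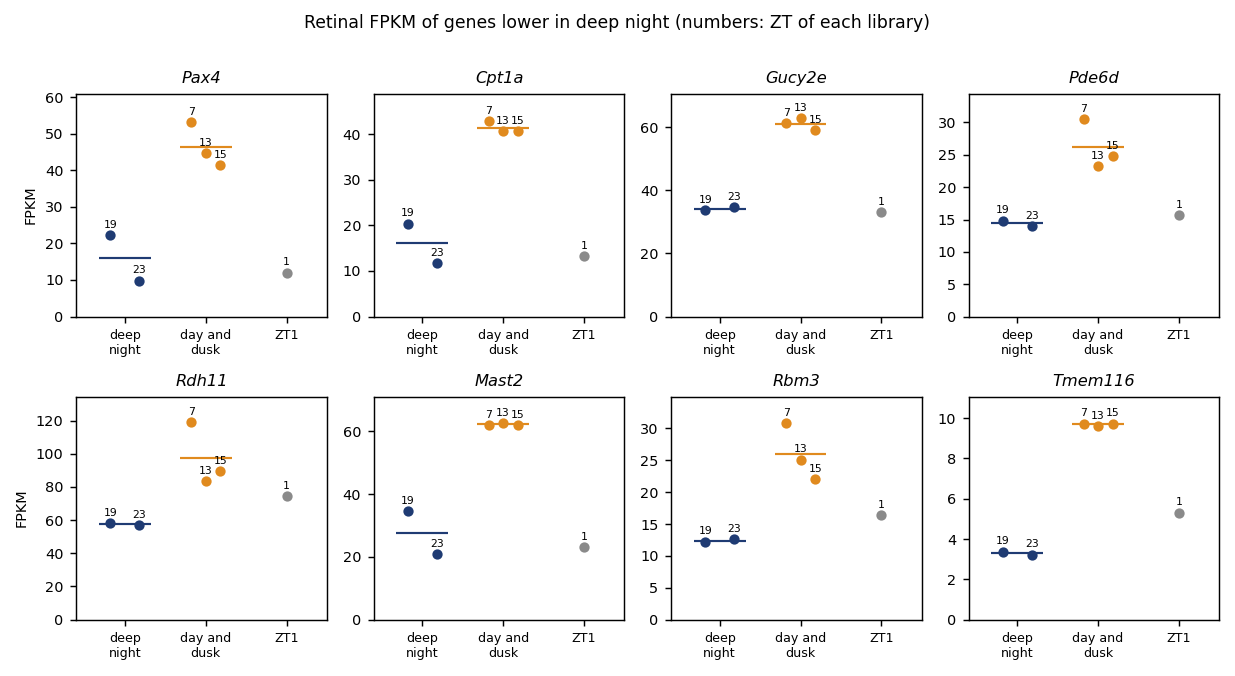
FPKM, from 0, of 8 genes lower in deep night, with a point for each retinal library labelled by its ZT, in the columns deep night, day and dusk, and ZT1, and bars at the group means (n = 2 and n = 3). Every deep night point lies below every day and dusk point, tightly for Tmem116 (3.38 and 3.23 against 9.62 to 9.74 FPKM) and more loosely for Pax4 (22.2 and 9.81 against 41.5 to 53.3 FPKM).

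The largest falls beside those above were mixed in kind. Tmem116, a membrane protein gene, stood at 3.38 and 3.23 FPKM in deep night, against 9.73, 9.62 and 9.74 FPKM in day and dusk (log2 difference -1.31, SE 0.10, adjusted p = 0.00019). Mast2, a microtubule-associated kinase gene, stood at 34.5 and 21.0 FPKM in deep night, against 62.0, 62.5 and 62.1 FPKM in day and dusk (log2 difference -1.18, adjusted p = 0.0050). Both were almost constant across day and dusk. Npvf, which codes for neuropeptides of the RFamide family, stood at 1.47 and 3.40 FPKM in deep night, against 7.32, 6.17 and 8.48 FPKM in day and dusk (log2 difference -1.33, adjusted p = 0.0067). Acbd7, an acyl-CoA binding protein gene, stood at 4.06 and 3.198 FPKM in deep night, against 14.8, 8.96 and 10.6 FPKM in day and dusk (log2 difference -1.41, adjusted p = 0.0022). Rgs20, which shortens G protein signals, had a log2 difference of -1.12 (adjusted p = 0.00080), and the microtubule-binding protein gene Eml1 one of -1.21 (adjusted p = 0.0023). Further falls were those of RGD1307355 (-1.28, adjusted p = 0.0039), the heart myosin gene Myh6 (-1.06, adjusted p = 0.0030), the kinase gene Dyrk2 (-1.05, adjusted p = 0.0065) and Dctpp1, an enzyme that clears modified nucleotides (-1.04, adjusted p = 0.011), of which Dyrk2 and Dctpp1 missed without ZT19 (0.0722 and 0.0608).

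The remaining falls are uncertain as single genes, since both belong to families with many near-identical copies in the genome. Atp5i, an ATP synthase subunit gene, stood at 10.5 and 6.79 FPKM in deep night, against 60.8, 16.1 and 24.9 FPKM in day and dusk (log2 difference -1.67, SE 0.40, adjusted p = 0.047, and 0.0722 and 0.193 without ZT19 and ZT23). Rplp1, a ribosomal protein gene, stood at 18.7 and 16.3 FPKM in deep night, against 37.5, 41.1 and 35.5 FPKM in day and dusk (log2 difference -1.08, adjusted p = 0.00074). Rplp1 was the gene still lower when ZT1, at 33.2 FPKM, was counted with day and dusk.

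Marker genes of the cell types of the retina were not called on the deposited scale. In a pooled tissue, fewer cells of a type and less RNA per cell cannot be told apart. Of 9 rod, 7 cone, 9 bipolar, 4 horizontal, 9 amacrine, 9 ganglion cell and 8 Müller glia markers 0 were called, and likewise of 7 microglia and 6 endothelium markers, though 2 of 8 endothelium markers were at 0 in all retinal libraries. Their medians lay between 0.05 below that of all genes, for microglia, and 0.10 above it, for bipolar cells. After quantile normalization 1 cone marker was higher and 1 Müller glia marker lower. After median ratio scaling 1 rod and 1 cone marker were higher. On the deposited scale the markers with the largest differences were Cngb1 (0.25) for rods, Opn1mw (-0.40) for cones, Cabp5 (0.32) for bipolar, Onecut1 (-0.24) for horizontal, Vip (-0.31) for amacrine and Sncg (-0.21) for ganglion cells, Apoe (-0.29) for Müller glia, Tyrobp (-0.34) for microglia and Pecam1 (-0.22) for endothelium, all as log2 differences that missed the threshold (adjusted p 0.12 to 0.45).

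Of 8 pigment epithelium markers 1 was called, Rpe65. Of the 8, 1 had both deep night libraries above the others and 2 had both below them, beside 6.86% and 37.3% of all genes tested. Tyr, the first melanin enzyme, stood at 0.435 and 0.754 FPKM in deep night, against 0.912, 1.70 and 3.58 FPKM in day and dusk (adjusted p = 0.11). The summed level of 11 markers was 187 and 244 FPKM in deep night, against 248, 228 and 219 FPKM in day and dusk. Of 6 markers of cornea, iris and ciliary body 0 were called (median 0.17 below that of all genes), and Wfdc1 differed most (log2 difference -0.58, adjusted p = 0.059). Blood markers were lower without a call, 0 of 3, with a median 0.48 below that of all genes. Of 8 genes 1 was at 0 in every retinal library, and their summed level was 70.8 and 101 FPKM in deep night, against 149.5, 113 and 106 FPKM in day and dusk, and the globin gene Hbb-b1 had a log2 difference of -0.72 (adjusted p = 0.061). The part of blood or pigment epithelium in the results above was not tested.

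On the log2(FPKM + 1) scale lens genes gave the largest rises of all called genes, and they are set apart. Crystallins are the bulk proteins of the lens fibre. Of 17 listed 9 were in the table and 8 were tested; 6 rose, with a median log2 difference of 1.52 over the 8. After quantile normalization 3 were called, without Crygb, Crygd and Crygs, and Crygb also lost its call after median ratio scaling. Crygc, a gamma crystallin, stood at 541 and 81.3 FPKM at ZT19 and ZT23, against 21.3, 31.6 and 35.0 FPKM in day and dusk (log2 difference 2.83, SE 0.57, adjusted p = 0.022, and 0.07 without ZT7). Crygb (log2 difference 2.63), Crygd (2.40), Crygs (1.35), Cryba2 (1.05) and Crygn (0.92) were the others, with adjusted p between 0.022 and 0.047. Gamma crystallins are near-identical copies, so reads may be split between them. The rises lay mostly in ZT19: the summed level of 9 crystallins was 2122 and 689 FPKM at ZT19 and ZT23, against 453, 472 and 463 FPKM in day and dusk. That is 1.39% and 0.452% of all FPKM in deep night, against 0.252%, 0.309% and 0.303% in day and dusk. Without ZT19 Crygc was still called at a log2 difference of 1.47 and Crygd at 1.10, whereas Crygb (1.09, adjusted p 0.059), Crygs (0.59, 0.211), Cryba2 (0.61, 0.175) and Crygn (0.69, 0.222) were not; without ZT23 the differences of Crygb, Crygd and Crygs were 4.16, 3.69 and 2.11, and without ZT7 the calls of Crygb (0.113), Crygd (0.0937) and Crygs (0.10) were lost, that of Crygs also without ZT15 (0.0504).

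Other lens genes were also highest at ZT19. The summed level of 9 of them was 269 and 124 FPKM in deep night, against 73.9, 75.6 and 74.5 FPKM in day and dusk. Of 7 tested 3 rose, with a median log2 difference of 1.12. In 6 both deep night libraries lay above the others, beside 6.86% of all genes tested. Mip, the water channel of lens fibres, stood at 42.4 and 23.3 FPKM in deep night, against 10.9, 8.66 and 11.5 FPKM in day and dusk (log2 difference 1.52, SE 0.21, adjusted p = 0.0035). Grifin, a lens galectin relative, stood at 143 and 78.1 FPKM in deep night, against 45.7, 50.1 and 48.0 FPKM in day and dusk (1.12, adjusted p = 0.013), and Lim2, a lens fibre membrane protein, at 31.1 and 13.2 FPKM in deep night, against 10.9, 8.09 and 8.37 FPKM in day and dusk (1.09, adjusted p = 0.048). Lenep, a lens epithelial protein gene outside the list, stood at 16.6 and 4.04 FPKM in deep night, against 1.23, 1.75 and 0.976 FPKM in day and dusk (2.04, SE 0.38, adjusted p = 0.016). In each of these genes ZT19 was the highest library. Without ZT19 the log2 differences were 1.13 for Lenep, 0.70 for Grifin (adjusted p 0.0893) and 0.50 for Lim2 (0.263), and Lim2 was at 1.68 without ZT23. Lenep and Lim2 missed without ZT7 (adjusted p 0.0521 and 0.064), and Lim2 without ZT15 (0.0653). Scaling each library to its sum without crystallins, which moves all genes of a library alike, gave 155 higher and 213 lower genes. The part of lens tissue in the results above was not tested.

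Retina at ZT1, an hour into the light and outside the comparison, lay nearer to deep night than to day and dusk for most called genes. Among the higher genes 114 of 155 (73.5%) were nearer to the deep night mean, and among the lower ones 145 of 225 (64.4%), against 49.9% of all tested genes. Kcnv2 was at 119.6 FPKM and Esrrb at 80.2 FPKM at ZT1, at or near their deep night levels. Pax4, Cpt1a and Mast2 were still low at ZT1, at 12.01, 13.2 and 23.2 FPKM. Aanat, at 1.23 FPKM, was between its groups. ZT15, an hour into darkness, was the highest of the 3 day and dusk libraries for 53 of the 155 higher genes (34.2%), against 14.9% of all tested genes, and the lowest for 112 of the 225 lower ones (49.8%), against 43.7%. These shares were not tested. ZT1 also had the second highest crystallin sum, 1248 FPKM, and the part of lens tissue in its likeness to deep night was not tested.

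The pineal gland, a relative of the retina that makes the melatonin of the blood, was sampled at the same times, and its difference between night and day was set against that of the retina. The difference between tissues passed for 627 of 10368 genes (6.05%, limma interaction, 1938 at an unadjusted p under 0.05), in 272 of them with the retina above. Without retina ZT19 it passed for 287 genes, without retina ZT23 for 334. It passed for 82 of the 380 genes called in the retina, 57 that rose and 25 that fell there. In the pineal gland 709 genes were called higher in the same comparison, 6.84%, and 1845 lower, 17.8%. Of the genes that rose in the retina 45 were also called higher in the pineal gland, 29.0% of the retinal and 6.35% of the pineal list, and 10 were called lower there. Of the genes that fell in the retina 112 were also called lower in the pineal gland, 49.8% of the retinal and 6.07% of the pineal list, and 5 were called higher. Among all genes tested in the retina, 6.70% were called higher and 17.6% lower in the pineal gland.

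Aanat in the retina stood at 4.17 and 2.47 FPKM in deep night, against 0.147, 0.0831 and 0.249 FPKM in day and dusk; in the pineal gland it stood at 650.3 and 857 FPKM in deep night, against 7.05, 6.35 and 5.13 FPKM in day and dusk. The log2 difference was 1.87 in the retina and 6.71 in the pineal gland, a gap of -4.84 (adjusted p = 1.9e-06). Atp7b (gap -4.40), Dusp1 (-2.86), Drd4 (-2.44), Pde8b (-2.40) and Irak2 (-1.76) also had a smaller difference in the retina than in the pineal gland. Drd4 stood at 27.5 and 55.8 FPKM in deep night pineal gland, against 2.32, 1.398 and 0.879 FPKM in day and dusk pineal gland. The pineal value was below the retinal one at ZT19 and near it at ZT23. Ctnnal1 went the other way, with 6.71 and 5.76 FPKM in deep night pineal gland, against 8.24, 8.39 and 8.61 FPKM in day and dusk pineal gland (gap 2.11, adjusted p = 0.00011). Adcy1 fell less in the retina (gap 1.98, adjusted p = 0.019), as did Fscn2 (0.87, adjusted p = 0.020). Csnk1e (1.15), Slc4a7 (1.12), Pde8a (1.07), Esrrb (0.70) and Sel1l (0.64) had the larger difference in the retina (adjusted p 0.00072 to 0.026). Without retina ZT19 the gaps of Csnk1e, Pde8a, Adcy1, Fscn2, Esrrb and Sel1l missed the threshold (adjusted p 0.063, 0.0742, 0.0956, 0.0513, 0.116 and 0.149), and without retina ZT23 those of Adcy1, Fscn2 and Esrrb (0.059, 0.113 and 0.0689). Adcy1 also missed without retina ZT7 (0.0543), Esrrb without retina ZT13 or ZT15 (0.0594 and 0.0588), and Sel1l without ZT13 or ZT15 of either tissue or pineal ZT23 (0.0511 to 0.0677). With the time of day as a block Esrrb (0.0647) and Sel1l (0.0684) missed too. The gap was 0.13 for Fscn2 with a pseudocount of 5 FPKM and 0.16 for Esrrb with one of 0.1 FPKM. Esrrb stood at no more than 0.139 FPKM in the pineal libraries compared. For Kcnv2 the gap of 0.38 (adjusted p = 0.50) depended on the settings: it was 0.97 with a pseudocount of 5 FPKM (adjusted p 0.0018), -0.63 with one of 0.1 FPKM (0.50), 0.77 without pineal ZT19 (0.021) and -0.0095 without pineal ZT23 (0.986). For Cpt1a (-0.08, adjusted p = 0.94), Pax4 (-0.03, adjusted p = 0.99), Gucy2e (-0.02, adjusted p = 0.98) and Adra1b (-0.01, adjusted p = 0.98) a difference between the tissues was not called, here or under any alternative run for this test. A missing call does not show an equal difference. The gap of Adra1b was 0.57 with a pseudocount of 0.1 FPKM and -0.61 with one of 5 FPKM, so its sign depended on the pseudocount.

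**Figure D5:**
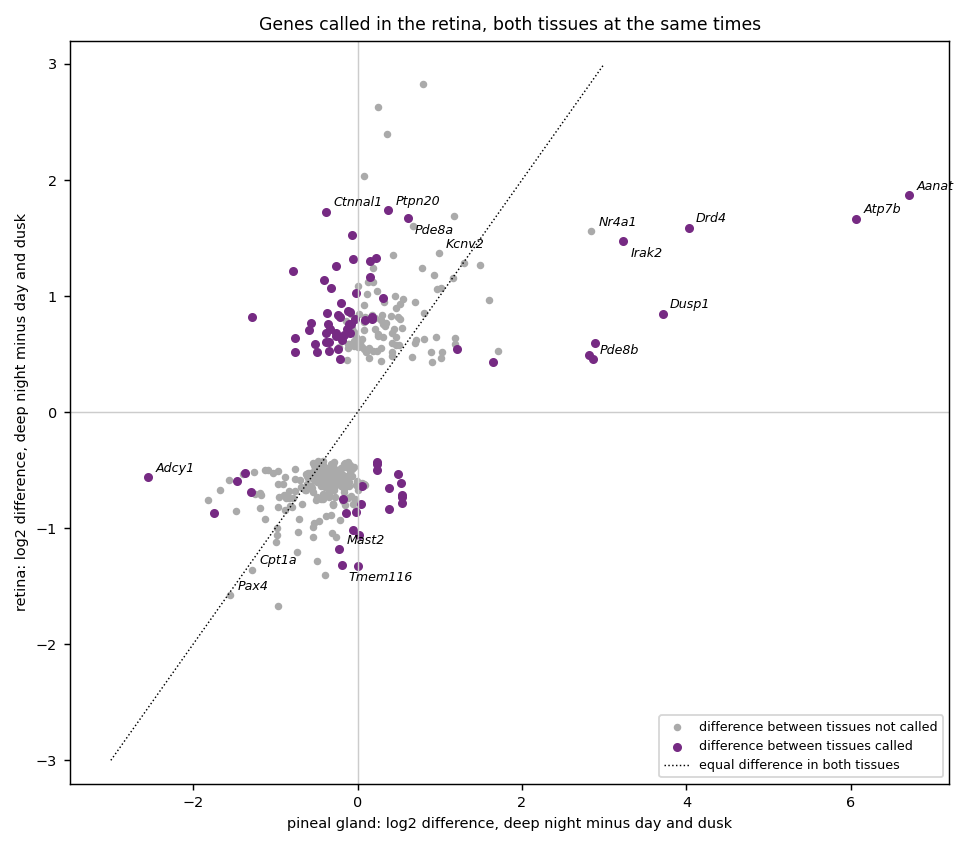
Log2 difference of FPKM + 1, deep night minus day and dusk, in the retina (vertical axis) against the pineal gland at the same times (horizontal axis) for the 380 genes called in the retina, with genes whose difference between tissues was called in purple. Aanat lies at 1.87 in the retina and 6.71 in the pineal gland, and Ctnnal1 at 1.73 and -0.38; Pax4 and Cpt1a lie close to the line of equal difference.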

How the data were processed

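Retinas and pineal glands of rats were collected at 6 times of day and sequenced as polyadenylated RNA, per the labels' protocols from 10 µg of total RNA with random primers, 16 PCR cycles, 6 libraries a lane and 101-base paired ends. The tools Cufflinks 1.2.0 and TopHat 1.3.1 and the build rn4 are listed in the submitters' processing notes. Strandedness is not given in the sources used here, and antisense overlaps cannot be told apart. The authors deposited FPKM per RefSeq transcript, without counts, so depth is unknown, and FPKM is relative to the library: a change in abundant transcripts shifts all others. The 16932 transcripts were summed per gene ID to 16472 genes. Starts in the deposited table count from 0, and 1 was added.

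Groups came from the labels' times. A gene was tested where 2 or more of the 5 libraries reached 1 FPKM. The test was that of limma 3.58.1 (R 4.3.3) on log2(FPKM + 1), moderated with a trend in mean expression (3 residual degrees of freedom, two-sided, Benjamini-Hochberg over all genes tested, threshold 0.05); a fold of a weak gene is understated on this scale. Nothing in the labels gives separate pools of 1 time, so p-values measure the spread between times and pools together. A second fit over 10 libraries tested the difference between tissues. Fits were tested on simulated data. Named genes were, per direction, the 15 with the largest log2 difference among called genes whose groups did not overlap, crystallins left out, and in each gene list the called members or, where none was called, the member that differed most; other list members were named after their values were seen. Some called list members are counted but not reported here by name. The comparison, the members and the lists were chosen with earlier results of these data known. Alternatives were pseudocounts of 0.1 and 5 FPKM, other filters, scalings and error models, ZT1 as a day library, transcripts in place of genes, and each library left out. Promoters came from RefSeq (GRCr8), the first entry per gene.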

Additional observations from a re-analysis of the deposited data

Results flagged for a closer look

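For 14 of the genes named for the size of their retinal change, the deep night difference differed between retina and pineal gland. The test was made on log2(FPKM + 1) (limma interaction, adjusted p under 0.05). The gap, retina minus pineal gland on the log2 scale, was -4.84 for Aanat, -4.40 for Atp7b, -2.44 for Drd4, -1.76 for Irak2, -1.33 for Npvf, -1.12 for Tmem116, -1.08 for Myh6 and -0.95 for Mast2. It was 2.11 for Ctnnal1, 1.59 for the lens gene Mip, 1.37 for Ptpn20 and for Bcl2l10, 1.10 for Ypel4 and 1.07 for Pde8a. The size of the Aanat gap depended on the pseudocount. The gaps of Aanat, Atp7b, Drd4, Irak2 and Ctnnal1 stayed past the threshold under each alternative run for this test. That of Ptpn20 stayed past it wherever the gene was tested. Without retina ZT19 or ZT23 Ptpn20 could not be tested, because a single library would then reach 1 FPKM. The gaps of the other 8 genes missed the threshold under at least 1 alternative. Npvf was listed at 0 in the pineal libraries compared. Mip, Bcl2l10, Ptpn20, Ypel4, Tmem116 and Myh6 stood at no more than 1.3149 FPKM in those libraries. The pseudocount of 1 FPKM holds down differences at such levels. Whether the gaps of these genes come from low pineal levels alone was not tested. The summed lens crystallin level of the retina at ZT1, a library outside the comparison, was 1248.3 FPKM, against 453 to 472 FPKM in day and dusk retina.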

How the results depend on the processing

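Against 155 higher and 225 lower genes, testing all genes above 0 gave 45 and 27, of which 67 were among the 380; with ZT1 counted as day there were 1 and 1. Quantile normalization gave 290 higher genes, median ratio scaling 371 and an error shared with the pineal gland 102. Leaving out 1 library gave 51 to 226 higher and 41 to 263 lower genes, the fewest without ZT19. The median of all genes was -0.0095 after quantile normalization, -0.0049 after median ratio scaling and -0.15 to -0.07 with 1 library left out. Of the 64 called genes that the text names or a list holds, 2 kept their call with ZT1 as day, 23 without a filter, 47 with the shared error, 32 of 61 without ZT19 and 45 of 61 without ZT23, and at least 52 of 64 under each other alternative that tested all 64; 54 of 54 kept it at a mean of at least 5 FPKM, and 0 reversed. The cause was not tested. No paired analysis was possible within the retina, because each time has 1 pooled library and nothing in the labels ties pools of different times together. Between the tissues, a block by time gave 459 genes with a difference, against 627 without it, and libraries of the same time correlated at 0.013 to 0.086 in their deviations. Leaving out 1 library gave 287 (retina ZT19) to 772, with 334 without retina ZT23.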
